A study of Mus musculus with 6 samples.

Results

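Cerebellins, C1q-like proteins and delta receptors are 3 gene families that meet at the synapse. The set described here holds 9 of the 23337 genes in the deposited table: the cerebellins Cbln1, Cbln2, Cbln3 and Cbln4, the C1q-like genes C1ql1, C1ql2 and C1ql3, the related C1qtnf4, and Grid1, which encodes the delta receptor GluD1. They were found by their symbols. The families were selected on the Sox6+ against Sox6- values of this same table, in which C1ql1, Cbln4 and C1qtnf4 were known to differ, so these differences are given as a description and support nothing by themselves.

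Cerebellins and C1q-like proteins are small secreted proteins that end in a globular C1q domain and assemble into trimers and larger complexes. Cerebellins released from an axon bind neurexins on the presynaptic side and delta receptors on the postsynaptic side, and so bridge the synapse; Cbln1 at the synapses between parallel fibres and Purkinje cells of the cerebellum is the classical case. C1q-like proteins bind the adhesion receptor Adgrb3, and some bind neurexins and kainate receptors. Delta receptors belong to the ionotropic glutamate receptor family by sequence but are not opened by glutamate in the usual way.

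The RNA came from adult C57BL/6 mice, from dopaminergic neurons of the pars compacta of the substantia nigra. All samples carried the same alleles, Th-2A-Flpo and Sox6-FSF-Cre with the reporter RC-Frepe, in which cells that have had the Flp recombinase alone make mCherry and cells that have had both recombinases make GFP. Cells were dissociated and sorted on these proteins, so a cell's group records recombination and not its Sox6 RNA on the day of the sort. The Sox6+ group (GFP) and the Sox6- group (mCherry) had 3 libraries each, numbered 103, 825 and 1211 in both. Values below are normalized read counts, that is, reads divided by the size factor of the library. Whether each library stands for another animal is not given in the labels, so any p-value measures the spread between these samples, which may be technical.

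The 6 libraries held from 10397924 to 12952768 reads in genes. Sox6 itself lay at 389.0 to 840.5 in the Sox6+ and at 18.1 to 103.6 in the Sox6- libraries, the order that the labels give. With a log2 difference of 3.66 (standard error 0.597; adjusted p = 0.0528, limma), even Sox6 did not pass the threshold of 0.05 used below. Sox6+ library 825 stood apart from the other 5 on the first principal component and held macrophage-like RNA. Its 10 macrophage and microglia markers summed to 31868.7, against 18.1 to 61.2 elsewhere. Most of that sum was Lyz2 at 26494.1, followed by Ctss at 3543.6 and Tyrobp at 1035.1. Of the same markers, Aif1 and Tmem119 were at 0 and Cx3cr1 at 2.28 in this library. The 6 oligodendrocyte markers also summed highest there, to 2071.3, against 123.3 to 251.3 elsewhere. The 6 GABAergic neuron markers summed to 7070.4, 5.69 and 2340.8 in Sox6+ libraries 103, 825 and 1211 and to 15561.6, 4460.3 and 12408.2 in the Sox6- libraries, and in Sox6+ library 825 Gad1 and Gad2 were at 0. The 3 glutamatergic markers summed to 162.8 to 999.3 in the Sox6+ and to 2262.9 to 4815.2 in the Sox6- libraries. The 10 dopaminergic neuron markers were present in both groups, at sums of 102840.0 to 200037.2 and 37772.6 to 128691.6. The part of these differences in the results below was not tested. In sorted bulk samples, fewer cells with a transcript and less of it per cell cannot be told apart.

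All 8 members that passed the filter on low values (6-library mean of 10 or more) had a negative log2 difference, meaning lower in Sox6+ neurons, as had 51.9% of the 13175 genes tested. The median over these 8 was -2.66, and over all tested genes it was -0.02. C1ql1, Cbln4 and C1qtnf4 passed the threshold (limma, Benjamini-Hochberg adjusted p under 0.05 over all tested genes), where 0.175% of tested genes passed in this direction. The same 3 members had groups that did not overlap, with every Sox6+ library below every Sox6- library, as had 9.19% of tested genes. Since the set was assembled with this comparison known, nothing is read from these counts. In the other 5 tested members, the libraries of the groups overlapped.

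**Figure D1:**
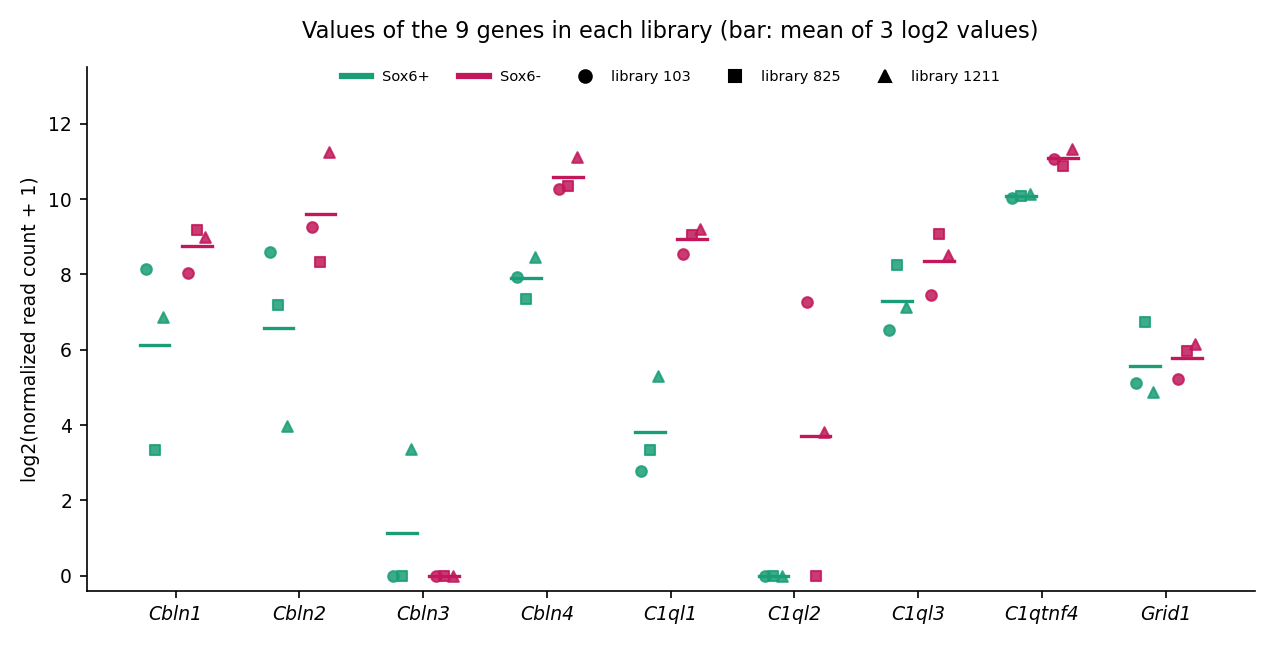
Normalized read counts on the log2(value + 1) scale (vertical axis) for the 9 genes (horizontal axis), with 1 point per library, colour for the group and shape for the library number; bars are means of 3. Cbln4, C1ql1 and C1qtnf4 have separate groups, whereas Cbln1 and Cbln2 spread widely over the Sox6+ libraries.

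C1ql1, whose protein in the cerebellum is made by climbing fibre neurons and acts on their synapses, was almost missing from the Sox6+ libraries. It lay at 5.92, 9.11 and 38.8 in Sox6+ libraries 103, 825 and 1211, and at 373.2, 523.7 and 594.5 in the Sox6- libraries in the same order. The lowest Sox6- library was thus far above the highest Sox6+ library, and of the Sox6+ libraries 1211 was the high one. Those Sox6+ values rest on 6, 8 and 42 reads. Over the groups, 56 reads stood against 1550, a depth-corrected ratio of Sox6- over Sox6+ of 26.4 with an exact 95% binomial interval from 20.2 to 35.2, which covers counting error only. On the log2(value + 1) scale, on which all log2 differences are given, C1ql1 differed by -5.12 (Sox6+ minus Sox6-; standard error 0.631; adjusted p = 0.0172, limma). Between libraries of the same number, the Sox6- value was 63.0, 57.5 and 15.3 times the Sox6+ value for 103, 825 and 1211.

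Markers of GABAergic and glutamatergic neurons moved with C1ql1 in part. Of the 6 GABAergic markers, the neuropeptide gene Sst was at 1.97, 0 and 0 in Sox6+ libraries 103, 825 and 1211 and at 3958.3, 3164.2 and 5814.1 in the Sox6- libraries, and Npy was at 0 in all Sox6+ libraries and at 10.6, 48.3 and 166.0 in the Sox6- libraries. The other 4, Gad1, Gad2, Slc32a1 and Pvalb, summed to 7068.4, 5.69 and 2340.8 in the Sox6+ and to 11592.8, 1247.8 and 6428.1 in the Sox6- libraries. Gad1, Gad2 and Slc32a1 were each lower in Sox6+ within every number. Pvalb went the other way in 103 and 1211, at 400.5, 0 and 868.7 in the Sox6+ against 60.4, 66.5 and 128.0 in the Sox6- libraries. Slc17a6, the main glutamatergic marker, was at 873.1, 162.8 and 764.2 against 2496.2, 2236.7 and 4815.2. It was also listed as a marker of dorsal tier dopaminergic neurons, with Adcyap1, Calb1 and Otx2. Adcyap1 lay at 484.4, 135.5 and 230.1 in the Sox6+ and at 1244.3, 1699.9 and 2718.3 in the Sox6- libraries. For Calb1 and Otx2 the groups overlapped. Sst, Npy and Slc17a6 were thus separate between the groups, as C1ql1 was, and the sum of the other 4 GABAergic markers overlapped. The part of cells with these markers, dopaminergic or not, in the C1ql1 values was not tested. In Sox6+ library 825, which held the macrophage-like RNA, C1ql1 was at 9.11, and without that library its log2 difference was -4.88. The adjusted p was then 0.0641 (limma), and it was 0.0602 without Sox6- library 825 and 0.192 without Sox6- library 1211, so the call was lost in each case. It was also lost with edgeR (adjusted p = 0.0697) and in limma without trend or robust moderation (adjusted p = 0.1). With the library number as a block, the call was kept in limma (adjusted p = 0.00243) and in edgeR (adjusted p = 0.0149). The numbers were not shown to pair the samples. C1ql1 lies on the minus strand of chromosome 11, from 102939264 to 102946688 (GRCm38). A long non-coding RNA gene on the opposite strand overlaps it, but the exons of the 2 genes do not overlap.

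C1ql2, which in hippocampal mossy fibres recruits kainate receptors, had no read in any Sox6+ library. In the Sox6- libraries it lay at 154.5 in 103, at 0 in 825 and at 13.0 in 1211. Its level thus rests on Sox6- library 103, which held 161 of its 175 reads, and only through that library did it pass the filter on low values. With 3 reads as the floor for the Sox6+ group, the summed reads differed by 55.7-fold, corrected for depth. That figure takes in no counting error of the 175 Sox6- reads. Without Sox6- library 103, 14 Sox6- reads remained, and Sox6- library 825 had none, like the Sox6+ libraries. The figure is thus no bound on a difference between the groups. The groups overlapped at 0, and the log2 difference of -3.70 (standard error 2.15) did not pass (adjusted p = 0.543, limma).

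The coding sequences of the C1q-like genes resemble each other most within the set, which bears on whether reads of C1ql1, C1ql2 and C1ql3 could be confused. Their 3 pairs were 75.2% to 76.0% identical over the aligned coding bases. The longest stretch without a mismatch that any 2 of the 8 secreted members share in their coding sequences was 38 bases long, in C1ql2 and C1ql3, and is shown here 5′ to 3′ as the closest approach of 2 members.
C1ql2 and C1ql3: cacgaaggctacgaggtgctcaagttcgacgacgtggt
C1ql3 had reads in all 6 libraries, and C1ql2 was at 0 in 4 of them. Whether reads were assigned to the wrong one of these genes was not tested.

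C1ql3, like C1ql2 a partner of kainate receptors, had reads in every library, as C1ql1 had. It lay at 90.8, 301.8 and 138.6 in Sox6+ libraries 103, 825 and 1211, and at 174.6, 542.8 and 362.6 in the Sox6- libraries. Library 825 was the highest in both groups and 103 the lowest, so the groups overlapped: Sox6+ library 825 lay above Sox6- library 103. Within each number, Sox6- was higher, by 1.92, 1.80 and 2.62 times for 103, 825 and 1211. C1ql3 did not pass, at a log2 difference of -1.05 (standard error 0.522; adjusted p = 0.477, limma). Exons of 2 unclassified transcripts on the opposite strand overlap those of C1ql3, and whether the counting used strand is not given in the sources used here, so reads of either strand cannot be told apart.

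The balance between C1ql1, C1ql2 and C1ql3, compared per kb of exon and without C1ql4, differed between the groups' libraries. C1ql3 made up 89.9%, 95.0% and 67.4% of the summed level of these 3 genes in Sox6+ libraries 103, 825 and 1211, whereas in the Sox6- libraries it made up 17.2%, 37.5% and 25.8%. C1ql1 made up 63.5%, 62.5% and 73.0% in the Sox6- libraries and 10.1%, 4.96% and 32.6% in the Sox6+ libraries. C1ql3 thus held the larger share in all 3 Sox6+ libraries and C1ql1 in all 3 Sox6- libraries, which follows from the values of C1ql1 above and is no separate result.

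**Figure D2:**
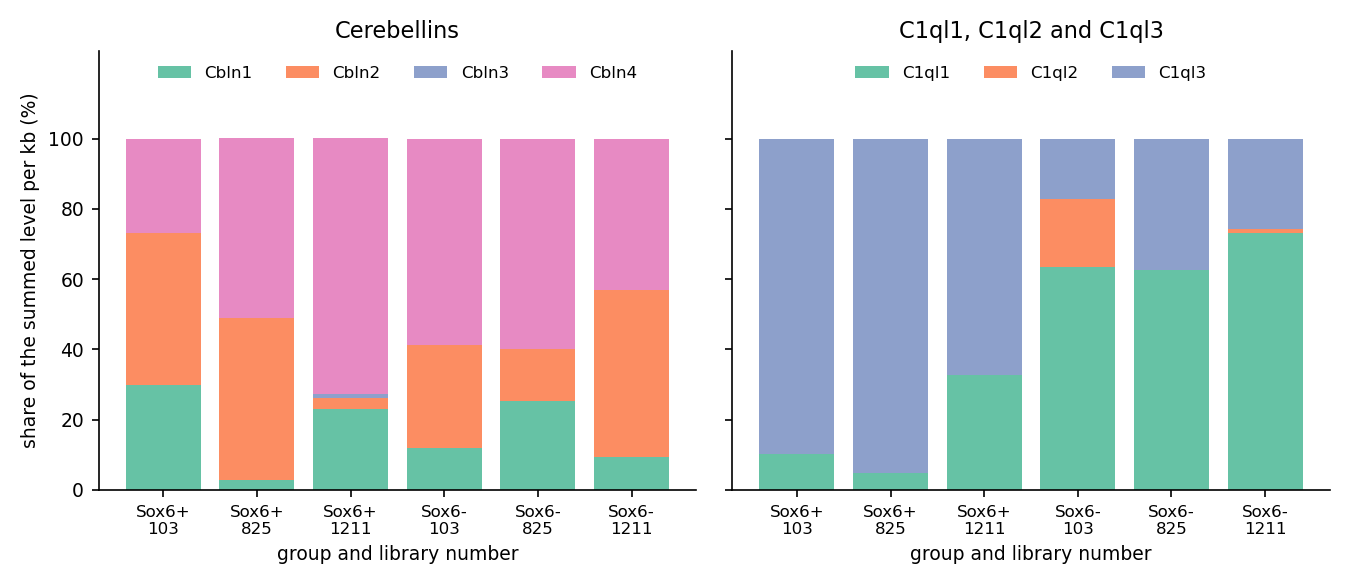
Share in percent of the summed level per kb (vertical axis) held by each cerebellin (left) and by each of C1ql1, C1ql2 and C1ql3 (right; C1ql4 is not included) in the 6 libraries (horizontal axis). C1ql3 holds 67.4% to 95.0% of the level of these 3 genes in the Sox6+ libraries and C1ql1 62.5% to 73.0% in the Sox6- libraries; the cerebellin shares vary within both groups.

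Cbln4, a cerebellin that can bind the receptor DCC besides neurexins, was the cerebellin whose groups stood apart. Its values were 241.7, 160.6 and 349.3 in Sox6+ libraries 103, 825 and 1211, against 1230.8, 1308.2 and 2233.3 in the Sox6- libraries. Library 1211 was the highest in both groups, and the lowest Sox6- library was still above the highest Sox6+ library. The means were 250.5 ± 94.7 and 1590.8 ± 557.8 (SD, n = 3 each), a 6.35-fold difference. On the log2 scale Cbln4 differed by -2.68 (standard error 0.325; adjusted p = 0.0172, limma). Within each number, Sox6- was higher by 5.09, 8.15 and 6.39 times for 103, 825 and 1211.

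The call for Cbln4 was lost without Sox6+ library 825 (adjusted p = 0.0528), Sox6- library 825 (adjusted p = 0.0507) or Sox6- library 1211 (adjusted p = 0.121) in limma, while the log2 difference stayed between -2.39 and -2.79 in these fits. It was also lost with edgeR (adjusted p = 0.0682) and in limma without trend or robust moderation (adjusted p = 0.123). With the library number as a block, the call was kept in limma (adjusted p = 0.00077) and in edgeR (adjusted p = 0.00661). Sst and Slc17a6, like Cbln4, were highest in library 1211 of the Sox6- group and lower in every Sox6+ library than in any Sox6- library. The part of cells with these markers in the Cbln4 values was not tested. The gene lies on the minus strand of chromosome 2, from 172036233 to 172043466 (GRCm38).

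Of the 9 members, 4 had a promoter window in the RefSeq table (GRCm38.p6): Cbln3, Cbln4, C1ql2 and C1ql3. The windows of Cbln4, the member among them with separate groups, and of C1ql2, the member with no read in Sox6+ libraries, are shown as the 250 bases before the start, 5′ to 3′ on the strand of the gene. They lie at chr2:172043467-172043716 (minus strand) and chr1:120340332-120340581 (plus strand). Capitals mark ACAAT on either strand, the core that Sox proteins bind (ATTGT is its reverse complement).
Cbln4: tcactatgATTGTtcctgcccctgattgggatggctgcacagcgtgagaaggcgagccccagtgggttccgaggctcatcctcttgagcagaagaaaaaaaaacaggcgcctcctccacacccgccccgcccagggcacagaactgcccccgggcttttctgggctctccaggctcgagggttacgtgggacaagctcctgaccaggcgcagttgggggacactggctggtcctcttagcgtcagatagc
C1ql2: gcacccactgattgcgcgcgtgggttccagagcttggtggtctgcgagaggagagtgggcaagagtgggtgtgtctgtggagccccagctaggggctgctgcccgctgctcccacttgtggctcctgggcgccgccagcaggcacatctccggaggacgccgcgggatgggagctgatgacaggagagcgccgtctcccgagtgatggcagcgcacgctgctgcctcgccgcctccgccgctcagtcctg
The Cbln4 window held 1 match, in reverse complement, whose first base lies at -242 from the start, and the C1ql2 window held none. C1ql3 also held 1 match, at -120, and Cbln3 none. Of 27025 promoters of this length, 28.3% held the motif, so a match is common. TATAAA, on either strand, was found in none of the 4 windows and in 13.0% of all. A match describes these letters only and shows no binding.

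Cbln1, the cerebellin of the parallel fibre synapse, varied more, as a ratio, between the Sox6+ libraries than between the groups' means. It lay at 281.2, 9.11 and 115.5 in Sox6+ libraries 103, 825 and 1211, and at 263.8, 584.1 and 510.1 in the Sox6- libraries. Sox6+ library 103 lay above Sox6- library 103, so the groups overlapped, and Sox6+ library 825 was the low one. The highest Sox6+ library held 30.9 times the lowest, against 2.21 times among the Sox6- libraries. The Sox6- mean was 3.35 times the Sox6+ mean. Cbln1 did not pass, at a log2 difference of -2.63 (standard error 1.21; adjusted p = 0.474, limma). Without Sox6+ library 825 that difference was -1.24.

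Cbln2, a cerebellin of several forebrain and hindbrain synapses, also spread widely, but other libraries were high and low. It lay at 387.7, 144.6 and 14.8 in Sox6+ libraries 103, 825 and 1211, and at 610.1, 323.3 and 2438.2 in the Sox6- libraries. Number 1211 gave both the lowest and the highest value, a 165-fold difference, where 103 and 825 gave 1.57-fold and 2.24-fold. Sox6+ library 103 lay above Sox6- library 825, so the groups overlapped. Cbln2 did not pass either, at a log2 difference of -3.03 (standard error 1.42; adjusted p = 0.496, limma). Without both libraries of number 1211 that difference was -0.90.

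Cbln3, which in the cerebellum is made by granule cells and is secreted together with Cbln1, was close to absent. It had 10 reads in Sox6+ library 1211, a value of 9.24, and none in the other 5 libraries, so it did not pass the filter and was not tested. The 5 markers of cerebellar granule cells summed to 303.8, 0 and 8.32 in Sox6+ libraries 103, 825 and 1211 and to 235.0, 58.4 and 116.9 in the Sox6- libraries, and the defining one, Gabra6, was at 0 in all 6.

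The cerebellin balance, again per kb of exon, varied between libraries of a group. Cbln4 made up 58.8%, 59.7% and 43.2% of the cerebellin level in Sox6- libraries 103, 825 and 1211, and 26.9%, 51.1% and 72.8% in the Sox6+ libraries. Cbln2 ranged from 3.09% to 46.2% in the Sox6+ and from 14.8% to 47.4% in the Sox6- libraries. Cbln1 made up 2.76% in Sox6+ library 825 and 9.42% to 29.8% in the other 5. The shares of each cerebellin thus overlapped between the groups.

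C1qtnf4, a secreted protein with 2 C1q domains and the only member of its kind in the set, was the steadiest gene within a group. It lay at 1042.8, 1094.3 and 1126.5 in Sox6+ libraries 103, 825 and 1211, and at 2129.8, 1900.3 and 2559.7 in the Sox6- libraries. The highest Sox6+ library held 1.08 times the lowest, and the groups did not overlap. The means were 1087.8 ± 42.2 and 2196.6 ± 334.7 (SD, n = 3 each), a 2.02-fold difference. Its log2 difference of -1.0 had the smallest standard error among the members, 0.159, and the adjusted p was 0.0428 (limma).

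That call for C1qtnf4 was near the threshold. It was lost without any single library except Sox6+ library 103, with adjusted p of 0.0974 without Sox6+ library 825, 0.142 without Sox6+ library 1211, and 0.0953, 0.0602 and 0.233 without Sox6- libraries 103, 825 and 1211 (limma). It was also lost with no filter on low values (adjusted p = 0.0627) and without trend or robust moderation (adjusted p = 0.215) in limma, and with edgeR (adjusted p = 0.0697). With the library number as a block, the call was kept in limma (adjusted p = 0.00806) and in edgeR (adjusted p = 0.0292). The log2 difference stayed between -1.11 and -0.89 over all 19 alternatives. C1qtnf4 lies on the plus strand of chromosome 2, from 90885860 to 90890525 (GRCm38).

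Grid1, the receptor gene of the set, was low and about equal in the groups. It lay at 33.5, 105.9 and 28.6 in Sox6+ libraries 103, 825 and 1211, and at 36.5, 61.4 and 69.6 in the Sox6- libraries. Sox6+ library 825 was the highest of all 6, and the Sox6- values lay inside the Sox6+ range. The means were 56.0 ± 43.3 and 55.8 ± 17.3 (SD, n = 3 each). Grid1 had a log2 difference of -0.20 (standard error 0.619; adjusted p = 0.925, limma), so a difference of the size of its error cannot be told from none. It turned positive without Sox6+ library 103 (0.04) or Sox6+ library 1211 (0.15). Grid1 spans chromosome 14 from 34820108 to 35583379 on the plus strand (GRCm38).

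**Figure D3:**
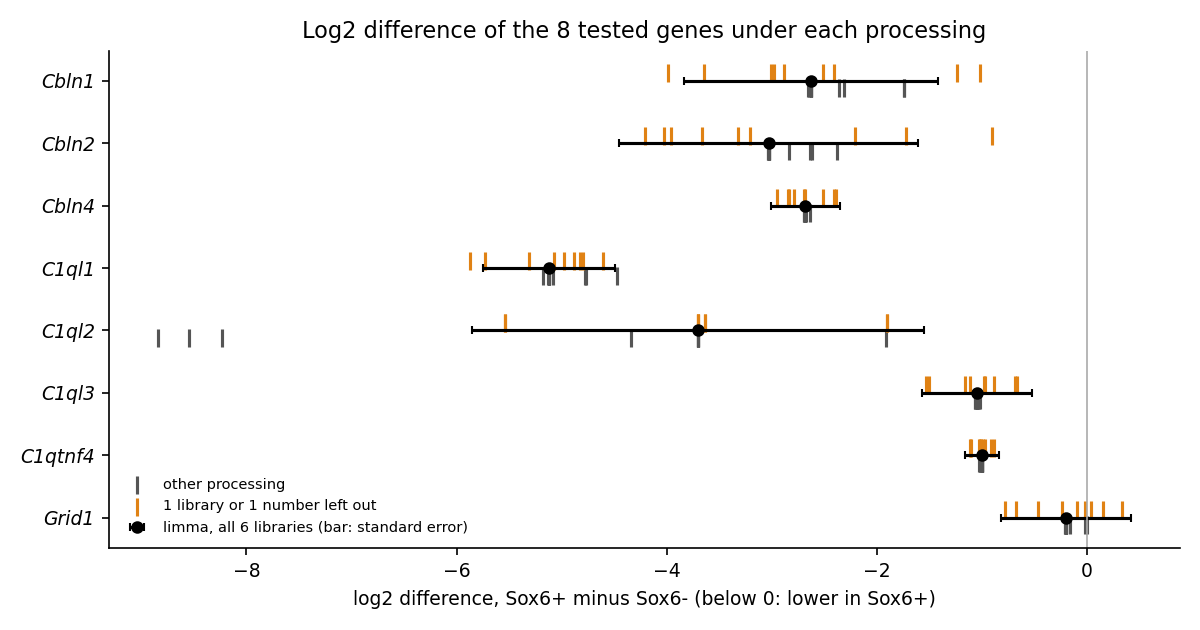
Log2 difference, Sox6+ minus Sox6- (horizontal axis), of the 8 tested members (vertical axis): points with standard error bars are the limma fit on all 6 libraries, ticks are the alternatives. C1qtnf4 stays between -1.11 and -0.89 and Cbln4 between -2.95 and -2.39, whereas Cbln1 and Cbln2 move by several log2 units and Grid1 crosses 0.

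Levels of different genes can be set side by side only per length, here as the normalized count per kb of exon. In the Sox6- libraries C1qtnf4 was the most abundant, at 1702.8 ± 259.5 per kb (SD, n = 3), and Cbln4 followed at 548.5 ± 192.3. Cbln2 at 388.9 ± 397.0 and C1ql1 at 338.2 ± 76.9 came next. Cbln1 and C1ql3 were nearly level, at 148.9 ± 55.2 and 141.7 ± 72.5. C1ql2 at 27.9 ± 42.8 and Grid1 at 9.36 ± 2.89 were low. Among neighbours in this order, C1qtnf4 and Cbln4 had separate library ranges, as had C1ql1 and Cbln1, whereas Cbln4 and Cbln2, Cbln2 and C1ql1, Cbln1 and C1ql3, C1ql3 and C1ql2, and C1ql2 and Grid1 overlapped.

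In the Sox6+ libraries C1qtnf4 was again the most abundant per kb, at 843.3 ± 32.7 (SD, n = 3), with all 3 libraries above those of every other member. Cbln4 at 86.4 ± 32.7, C1ql3 at 69.7 ± 43.6, Cbln2 at 63.1 ± 65.5 and Cbln1 at 44.5 ± 45.1 came next, with ranges that overlapped. C1ql1 at 12.2 ± 12.3 and Grid1 at 9.40 ± 7.26 overlapped each other and also Cbln2 and Cbln1. C1ql1 thus stood above Cbln1 and C1ql3 per kb in Sox6- neurons and below both in Sox6+ neurons, in the order of the means. In Sox6+ library 825, however, C1ql1 at 6.2 per kb lay above Cbln1 at 3.0.

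**Figure D4:**
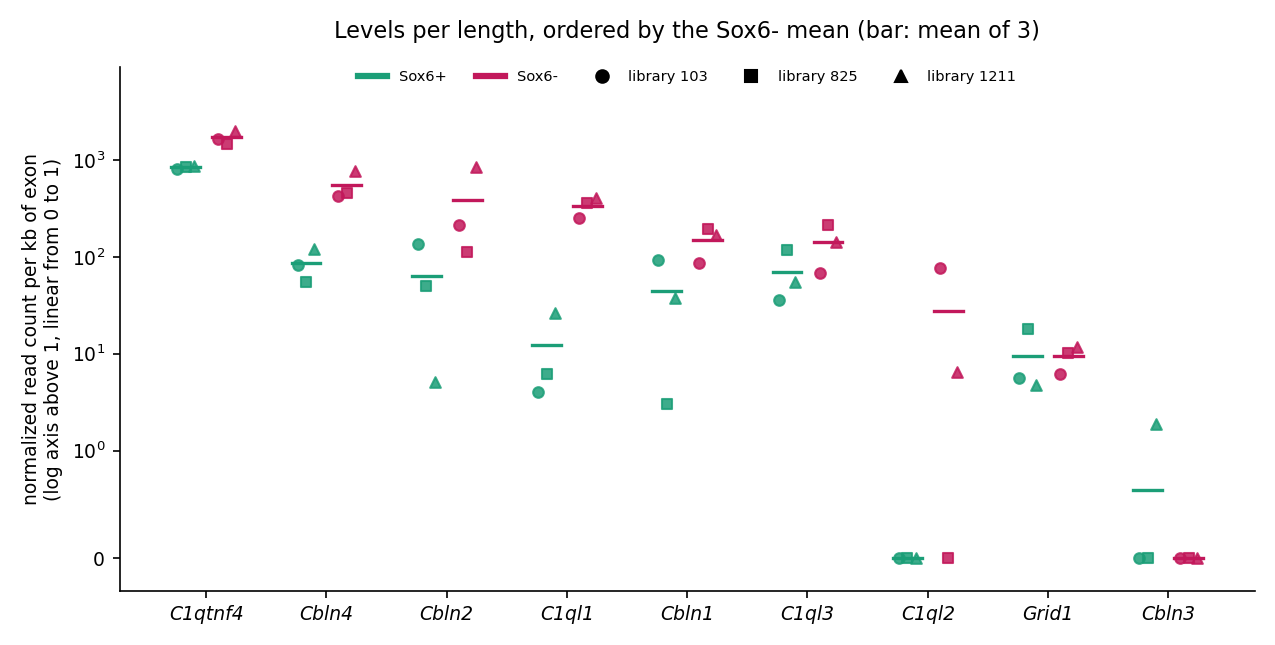
Normalized read count per kb of exon (vertical axis, logarithmic above 1 and linear below) for the 9 genes ordered by their Sox6- mean (horizontal axis), with 1 point per library and bars for means of 3. C1qtnf4 is the highest in all 6 libraries. In the Sox6+ libraries Cbln4, C1ql3, Cbln2 and Cbln1 overlap, and Cbln2 and Cbln1 also overlap C1ql1 and Grid1.

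The genes whose pattern over the 6 libraries was most like that of a member past the threshold were sought by the root mean square difference of centred log2 values. For Cbln4 they were Igfbp4, which binds insulin-like growth factors, at 0.22, Doc2a, a calcium sensor of vesicle release, at 0.292, and the zinc finger gene Zbtb46 at 0.294. Like Cbln4, Igfbp4 was highest in number 1211 of each group, at 47.1 (Sox6+) and 437.7 (Sox6-). For C1ql1 they were Fras1, an extracellular matrix gene, at 0.465, H2-Q2 at 0.638 and Mc3r, a melanocortin receptor, at 0.829. All 3 were at 0 in Sox6+ libraries 103 and 825, and reads of H2-Q2 may be shared with near-identical histocompatibility genes. For C1qtnf4 they were Fndc3a at 0.10, Phlda3 at 0.124 and Lrpap1, a chaperone of lipoprotein receptors, at 0.125. Among the members themselves, C1ql3 and Grid1 were the closest pair at 0.574. Within the Sox6+ group both were highest in library 825. The measure is not scaled, so genes that vary little over the libraries lie close to one another.

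The partners that cerebellins and C1q-like proteins bind were present in both groups, and none of the 7 reported here passed the threshold. The count was 0 with limma (0.304% of all tested genes passed in either direction), edgeR (0.0455%), DESeq2 (2.94%) and limma with the library number as a block (2.03%). An unadjusted limma p under 0.05 was found for 3 of the 7 (Nrxn3, Neo1 and Grik2), where 11.4% of all tested genes had one. The neurexin Nrxn2 lay at 139.3 ± 22.3 in the Sox6+ group and 126.2 ± 4.86 in the Sox6- group (SD, n = 3 each). Nrxn3 lay at 3522.7 ± 518.0 and 2431.5 ± 549.7, a log2 difference of 0.55 (standard error 0.198; adjusted p = 0.341, limma). The C1q-like receptor Adgrb3, listed under its older symbol Bai3, lay at 609.8 ± 55.6 and 784.1 ± 111.7.

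The receptors Neo1 and Dcc, which bind netrins as well, lay higher in the Sox6+ means. Neo1 was at 331.5 ± 82.5 against 182.6 ± 19.9 (SD, n = 3 each), with a log2 difference of 0.83 (standard error 0.277; adjusted p = 0.296, limma). The groups did not overlap in Neo1 and Nrxn3, higher in Sox6+, as in 1035 of the 13175 tested genes. They did not overlap in Adgrb3 either, lower in Sox6+, as in 9.19% of tested genes. Dcc was at 491.5 ± 80.1 against 385.3 ± 134.6. The kainate receptor subunit Grik2 was at 183.2 ± 125.2 against 367.1 ± 87.9, and Grik4 was low in both groups at 20.2 ± 14.8 and 30.5 ± 11.4.

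Of 8 genes reported here that work around delta receptors at the synapse, 7 were in the table and 5 were tested. None passed with limma, edgeR, DESeq2 or limma with the block, where 0.304%, 0.0455%, 2.94% and 2.03% of all tested genes did. Of the 5, 0 had an unadjusted limma p under 0.05, where 11.4% of all tested genes had one. The median log2 difference was 0.07, and over all tested genes it was -0.02. Some genes of this list are not reported here and were left out with their values known. The 3 with the smallest p were Itpr1, the calcium release channel, Ptpn4, a tyrosine phosphatase, and Gopc, a scaffold protein of the Golgi. Itpr1 lay at 313.2 ± 57.8 in the Sox6+ group and 428.7 ± 173.5 in the Sox6- group (SD, n = 3 each). Ptpn4 lay at 220.1 ± 71.3 and 168.2 ± 68.1, and Gopc at 496.9 ± 54.7 and 433.3 ± 52.5. The groups overlapped in all 3 genes.

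Most other genes with a C1q domain listed here fell below the filter on low values. Of 22 listed, 7 had no read in any library, 15 fell below the filter and 7 were tested. Over all 23337 symbols, 6009 had no read and 10162 fell below the filter. None of the 7 passed with limma, edgeR, DESeq2 or limma with the block, where 0.304%, 0.0455%, 2.94% and 2.03% of all tested genes did. Their median log2 difference was -0.09, against -0.02 over all tested genes. Of these 7, 1 had an unadjusted limma p under 0.05, where 11.4% of all tested genes had one. C1qtnf2 was at 0, 10.2 and 16.6 in Sox6+ and at 47.0, 32.2 and 53.8 in Sox6- libraries 103, 825 and 1211, with a log2 difference of -2.93 and an adjusted p of 0.403 (limma). Emilin2, of the extracellular matrix, had no read in Sox6- libraries and was at 0, 51.2 and 17.6 in the Sox6+ libraries. Col8a1, a short-chain collagen, lay at 68.7 ± 25.7 and 49.9 ± 6.46 (SD, n = 3 each). C1ql4, the remaining C1q-like gene, was at 105.7 in Sox6- library 825, at 5.69 in Sox6+ library 825 and at 0 in the other 4. The complement genes C1qa, C1qb and C1qc, which macrophages make, did not exceed 12.8 in any library, also in Sox6+ library 825.

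**Figure D5:**
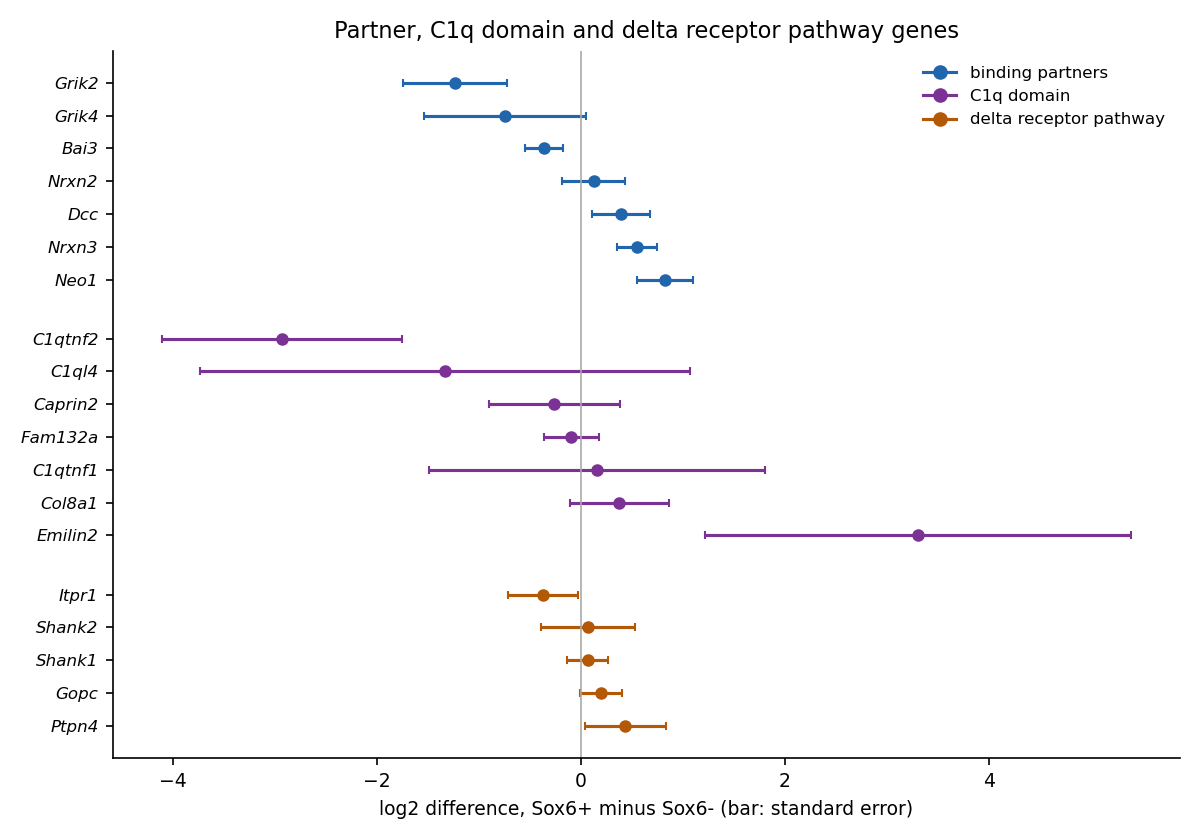
Log2 difference, Sox6+ minus Sox6- (horizontal axis, bars are standard errors), of the tested genes of the 3 lists reported here (vertical axis). Values lie on both sides of 0, and the wide bars of Emilin2 and C1ql4 belong to genes at 0 in some libraries; none passed the threshold.

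In the authors' deposited table, made with DESeq2, the same 3 members had an adjusted p under 0.05, where 1.58% of genes with an adjusted p were called in this direction. That table gives log2 fold changes of Sox6- over Sox6+ of 4.78 for C1ql1, 2.67 for Cbln4 and 1.01 for C1qtnf4. For Cbln2 and C1ql2 the authors' deposited table gives unadjusted p-values of 0.0426 and 0.0353 and adjusted ones of 0.395 and 0.363.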

How the data were processed

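The labels' protocols give papain dissociation, total RNA isolation and a stranded poly(A) library kit. Per the submitters' processing notes the tools were STAR, HTSeq, DESeq2, cutadapt and FastQC, on mm10 (GRCm38), whose versions and settings are not stated there. The deposited data are 1 table by the authors of 23337 symbols with a normalized signal (read count over a size factor) for 6 libraries and, per the file headers, a log2 fold change, its standard error and test score, and p-values, raw and adjusted. Of values above 0, 100.0% were whole multiples of the library's step within 0.01, which gave back the reads.

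Groups came from the sample titles. Genes with a mean of at least 10 (13175) were fitted with limma 3.58.1 (trend, robust) on log2(value + 1), without a block, 2-sided, at a threshold of 0.05. edgeR 4.0.16 and DESeq2 1.42.0 ran on the recovered reads, in R 4.3.3, and the fits were tested on simulated data. Of the 3 gene lists, 1 symbol was not matched; some of their genes are not reported here and were left out with their values known. List counts and medians cover the rest; for the binding partners the sign of the median changed with this, so no direction is given. Text names all members, list genes of smallest p, Sox6, and for each called member the 3 genes of most similar pattern with a mean of at least 50; the other partner genes, C1ql4 and the complement genes were named after their values were seen. Members and lists were chosen with earlier results of these data known. Exon lengths and positions come from GENCODE M21 and promoters from RefSeq (GRCm38.p6); coding sequences were aligned with Biopython 1.88. No library copied another (chi-square per gene at least 34.4). Alternatives tried were other pseudocounts, filters, scaling and tools, a block for the library number, and leaving libraries out.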

Additional observations from a re-analysis of the deposited data

How the results depend on the processing

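The count of genes past the threshold, 40 with limma on all 6 libraries, was 267 with the library number as a replicate block, 69 with a pseudocount of 8, 21 with no filter on low values, 24 without trend or robust moderation, 6 with edgeR, 120 with edgeR and the block and 387 with DESeq2, ran from 1 to 161 without 1 library, and was 70, 2 and 1 without both libraries of 103, 825 and 1211. Of the members, 3 passed in limma and in DESeq2, and 3 with the block in limma and in edgeR. With edgeR and no block 0 passed (adjusted p from 0.0682 for Cbln4 to 0.0697 for C1ql1 and C1qtnf4). Over the alternatives the adjusted p was lowest with DESeq2 and highest with limma. It ran from 1.53e-11 to 0.378 for Cbln4, from 8.56e-12 to 0.369 for C1ql1 and from 2.26e-06 to 0.753 for C1qtnf4. In limma, 0 passed without trend or robust moderation, and 2 with no filter on low values (not C1qtnf4). With libraries left out, from 0 to 3 passed, and the cause was not tested. The library numbers were not shown to pair the samples: deviations from the group means correlated at 0.268, 0.172 and 0.079 for 103, 825 and 1211, although each library correlated best with its own number. The 7 tested members other than Grid1 kept their sign in all their alternatives. C1ql2, at 0 in all Sox6+ libraries, could not have turned positive. Since the members were chosen on this comparison, nothing is read from the kept signs. The log2 difference of Grid1 was 0.0 with DESeq2, from -0.78 to 0.15 without 1 library (0.04 and 0.15 without Sox6+ libraries 103 and 1211), and 0.33 without number 1211. Without 1 library, that of C1ql4 ran from -2.45 to 0.91 (without Sox6- library 825), and it was 0.0 without number 825. Depth limits C1ql1 in Sox6+ libraries, C1ql2 and Cbln3.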
